A study of Mus musculus with 6 samples.

Results

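The genes described here encode the subunits of oxidative phosphorylation, the set of inner mitochondrial membrane complexes that turns the energy of nutrients into ATP. They were taken from the gene table by symbol: the protein-coding genes of the Nduf a, b, c, s and v series (complex I), Sdha to Sdhd (complex II), the Uqcr genes (complex III), Cox4 to Cox8 (complex IV) and Atp5 (complex V, the ATP synthase), together with the protein genes of the mitochondrial DNA. This gave 99 of the 45777 genes of the table, 86 on nuclear chromosomes and 13 in the mitochondrial genome. The nuclear members divide into 39 for complex I, 4 for complex II, 8 for complex III, 18 for complex IV and 17 for complex V, and the mitochondrial members into 7, 0, 1, 3 and 2. The grouping follows the symbols, so Ndufa4 stands with complex I although its protein is known as a complex IV subunit, and Cox7a2l stands with complex IV although its protein is known for joining complexes III and IV. Ndufb4b and Ndufb4c are gene copies of Ndufb4 that the table lists as protein-coding.

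RNA was sequenced from the striatum of offspring aged 6 weeks, of the outbred ICR mouse strain. Their fathers, ICR males aged 6 weeks, had been injected under the skin on 21 days with methylphenidate at 15 mg/kg or with saline at 10 mL/kg, and then mated with females that received no drug. The offspring themselves were not described as treated, and each group held 3 of them, 2 females and 1 male. Methylphenidate, an inhibitor of dopamine and noradrenaline reuptake, is prescribed for attention deficit hyperactivity disorder. The libraries are called saline-sired 3, 4 and 5 and methylphenidate-sired 2, 4 and 6, after the column numbers of the table, and these numbers are not tied to the labelled animals or their sex. The sources used here do not give the numbers of sires and litters, so the p-values measure the spread between these samples, and littermates may be among them.

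Electrons from NADH enter the respiratory chain at complex I and those from succinate at complex II; both pass to complex III and then to complex IV, which reduces oxygen. Complexes I, III and IV pump protons out of the mitochondrial matrix, and the ATP synthase lets them flow back to make ATP. Most subunits are encoded in the nucleus and imported, whereas the mitochondrial DNA encodes a few hydrophobic core subunits of every complex except complex II, so assembly needs the products of both genomes. Neurons depend on this pathway to restore ion gradients after firing.

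Total counts ran from 31360042 to 38844724 per library. On the first principal component of all genes (28.3% of the variance), saline-sired libraries 3 and 4 lay at -28 and -42.5. The other 4 lay on the opposite side of 0, at 11.3 to 21.6. Choroid plexus markers, of a tissue next to the striatum, summed to 2158 and 388 CPM (counts relative to library size) in saline-sired 3 and 4. They summed to 34.2 in saline-sired library 5 and to between 40.2 and 92.2 in the methylphenidate-sired ones. All 12 of the 12 tested had negative fold changes. Medium spiny neuron markers, of the main striatal neuron, summed to 11501 to 12320.4 CPM among saline-sired and 9664 to 10875 in the methylphenidate-sired group (14 of 14 negative), and cortical excitatory neuron markers to 464 to 966 and 1163 to 1334 (12 of 12 positive). Oligodendrocyte markers summed to 7671 to 14429.5 and 7805 to 10570.1 CPM (10 of 10 negative), and ependymal markers to 20.2 to 44.5 and 18.9 to 26.7 (10 of 10 negative). Blood markers summed to 184, 186 and 98.0 CPM in saline-sired 3, 4 and 5 and to 110, 159.7 and 49.2 in methylphenidate-sired 2, 4 and 6 (5 of 5 negative). The other marker lists were mixed in direction, with 6 of 10 astrocyte, 4 of 10 microglia and 5 of 10 endothelial cell markers positive. No marker of these lists was at 0 in every library. The part of these markers in the values below was not tested, and in bulk tissue fewer cells of a type and less RNA per cell cannot be told apart.

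The question of the design was whether a father's methylphenidate treatment went with a different striatal transcriptome in his offspring. Neither genome's subunit genes held a gene that passed the test. Nuclear members were mostly slightly lower and mitochondrial members slightly higher in the methylphenidate-sired group. Of the 84 nuclear members that passed the filter on low counts, 66 had a negative log2 fold change (methylphenidate-sired minus saline-sired), which is 78.6%, against 53.0% of all 17874 genes tested. Their median was -0.08, against -0.01 over all genes tested. Of the 82 nuclear members tested that had a length, 74 belonged to the quartile of genes with the shortest transcripts. In that quartile of all genes, 62.9% were negative and the median was -0.05. All 13 mitochondrial members had a positive log2 fold change, with a median of 0.12, against 47.0% positive among all genes tested. These 13 genes are cut from long shared transcripts, so their signs are not independent of each other. Methylphenidate-sired library 4 was the highest library in 12 of them, and saline-sired library 3 the lowest in 9.

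The quasi-likelihood test of edgeR, with Benjamini-Hochberg adjustment and a threshold of 0.05, called 4 of 17874 genes, 0.0224%, and 0 of the 97 members tested were among them. limma-voom also called 4 genes (0.0224%) and DESeq2 173 (0.968% of the 17874), again with 0 members. DESeq2 gave no adjusted p for 2779 of these genes, among them the low-count members Cox4i2, Cox6b2, Cox7a1 and Cox7b2. At an unadjusted edgeR p under 0.05, 7 nuclear members were lower, 8.33% of those tested against 3.95% of all genes. At that threshold 0 nuclear or mitochondrial members were higher, against 5.07% of all genes. DESeq2 had 2 mitochondrial members under it, both higher, and 1524 of all genes in either direction. With edgeR and each library omitted in turn, 1 to 14 nuclear members, all lower, and 0 to 5 mitochondrial members were under it. Nuclear members numbered 1 of 84 without saline-sired library 3, when 1251 of all genes were under it. Without methylphenidate-sired library 2 they numbered 1 of 85, when 1525 of all genes were. The 14 and the 5 came without saline-sired library 5, when 2369 of all genes were under it. The lowest edgeR adjusted p was 0.452 among the nuclear and 0.562 among the mitochondrial members. The saline-sired and methylphenidate-sired libraries did not overlap in 10 nuclear members that were lower, 11.9% against 7.01% of all genes, and in 1 that was higher, 1.19% against 7.84%. They overlapped in all 13 mitochondrial members. The plot of fold changes by gene shows that these differences were small. Of 84 nuclear members, 52 lay within 0.1 of 0 on the log2 scale, and the median SE was 0.08. Other differences were larger than their SE, such as Cox5b at -0.30 (SE 0.09) and ND4 at 0.22 (SE 0.10), and none passed the test.

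**Figure D1:**
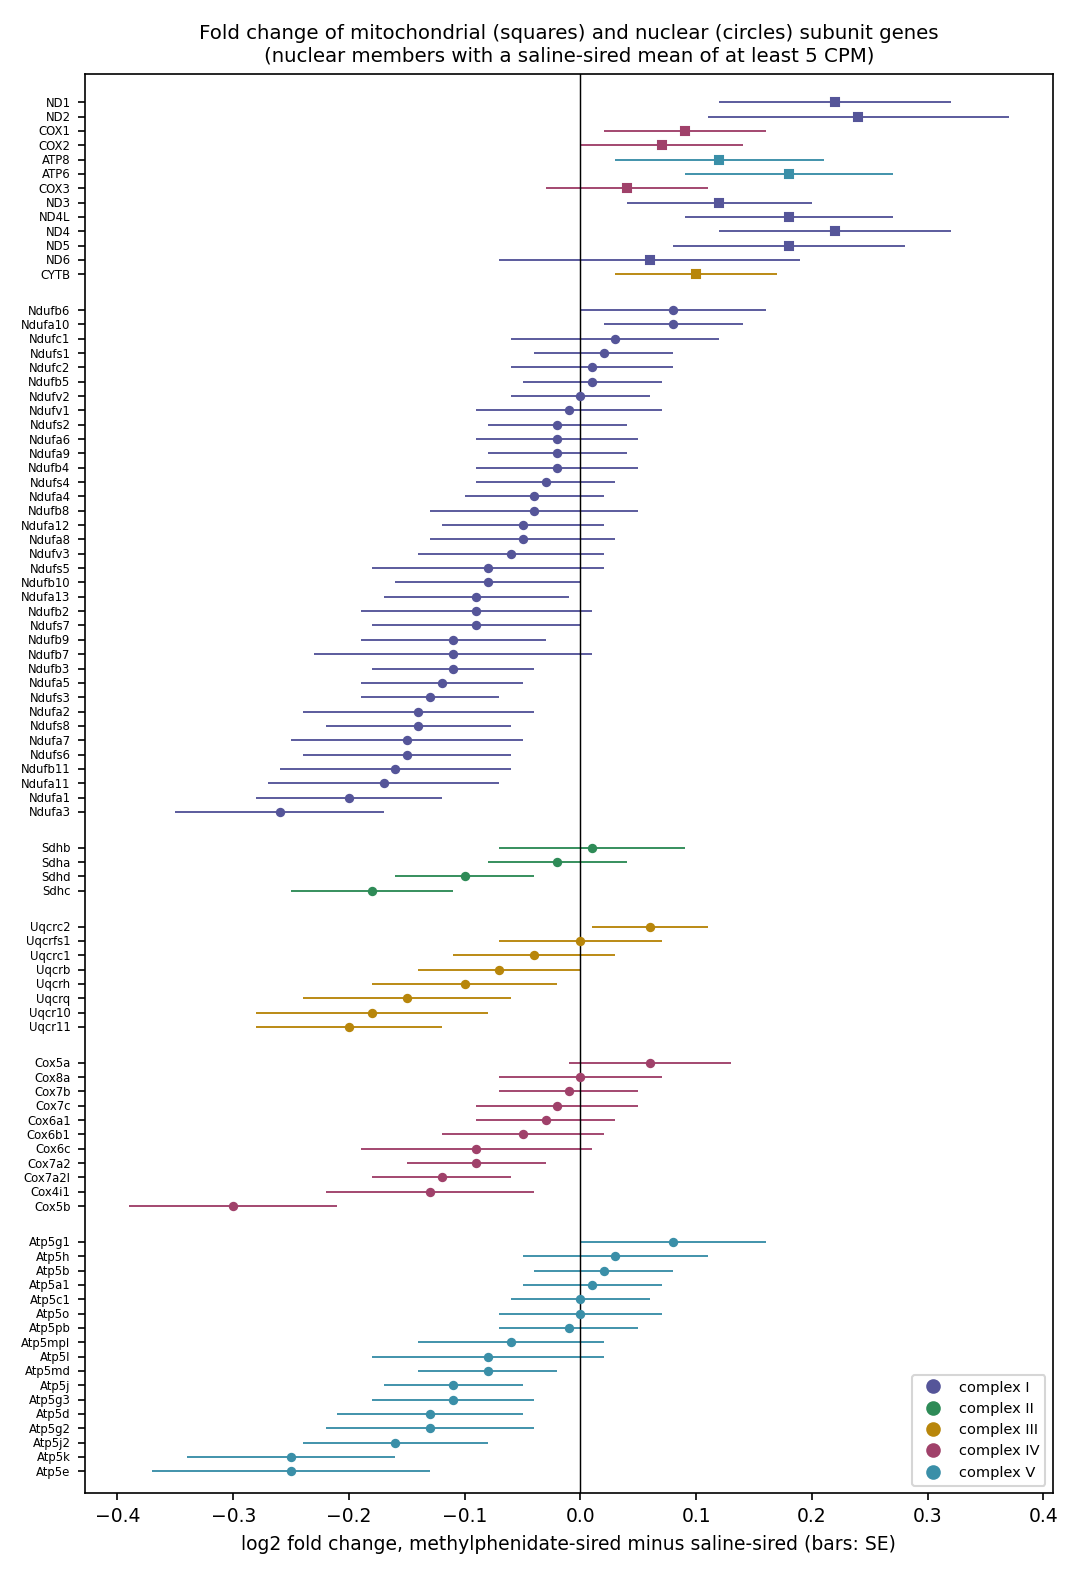
Log2 fold change (horizontal axis, methylphenidate-sired minus saline-sired, n = 3 libraries per group) of the 13 mitochondrial members in genome order and of the 76 nuclear members with a saline-sired mean of at least 5 CPM, by complex, with bars for 1 SE. All squares of the mitochondrial members lie right of 0 (0.04 to 0.24), most circles of the nuclear members lie left of it (-0.30 to 0.08), and none passed the test.

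The mitochondrial genome supplied far more subunit reads than the nucleus. Its 13 members took 7.80%, 8.08% and 8.86% of all counts in saline-sired 3, 4 and 5, and 8.85%, 9.57% and 8.44% in methylphenidate-sired 2, 4 and 6. The 86 nuclear members together took 0.852%, 0.814% and 0.757%, and 0.741%, 0.781% and 0.788%. Saline-sired library 5 lay among the methylphenidate-sired libraries in both shares, so the groups overlapped in each.

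The ratio of mitochondrial to nuclear member counts, which does not depend on how a library is scaled, was 9.16, 9.93 and 11.7 among saline-sired and 11.9, 12.2 and 10.7 among methylphenidate-sired libraries. On the log2 scale it was 3.35 ± 0.18 and 3.54 ± 0.10 (SD, n = 3), a difference of 0.19. The ratio of methylphenidate-sired library 6 lay below that of saline-sired library 5, and the difference was about the size of the spread between libraries. Without saline-sired libraries 3 and 4, an alternative chosen after seeing the data, the difference was -0.012.

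**Figure D2:**
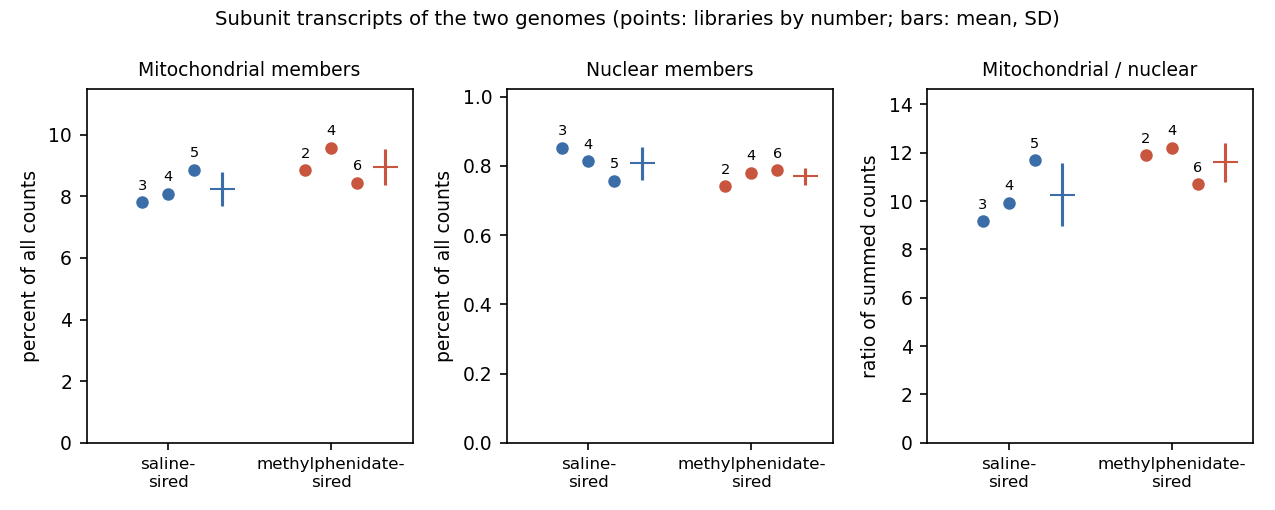
Percent of all counts taken by the 13 mitochondrial members (left) and the 86 nuclear members (middle), and the ratio of these sums (right), for each library, labelled by its number, with the group mean and SD (n = 3). Saline-sired library 5, at 8.86%, 0.757% and 11.7, sits with the methylphenidate-sired libraries rather than with saline-sired libraries 3 and 4.

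Levels per kilobase place the genes of both genomes on a common scale, by transcript length for nuclear and by gene length for mitochondrial members. COX1, the catalytic subunit of complex IV, had the highest mean over the 6 libraries, at 14586 CPM per kilobase, and ND6, a complex I subunit and the only one of the mitochondrial protein genes on the other strand, the lowest of the mitochondrial members at 470.3. The mitochondrial median was 7032 CPM per kilobase and the nuclear median 74.4. Even the most abundant nuclear member, Atp5b, the catalytic beta subunit of the ATP synthase, was below ND6 at 452 CPM per kilobase.

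Within the nucleus the highest level per kilobase in each complex belonged to Ndufa4 in complex I (248 CPM per kilobase), Sdha in complex II (106), Uqcrh in complex III (169), Cox8a in complex IV (411) and Atp5b in complex V. The medians of complexes I to V were 54.5, 59.1, 94.1, 108 and 127 CPM per kilobase, lowest in complex I and highest in complex V. These levels rest on reference transcript lengths, and the transcripts used in striatum were not measured.

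**Figure D3:**
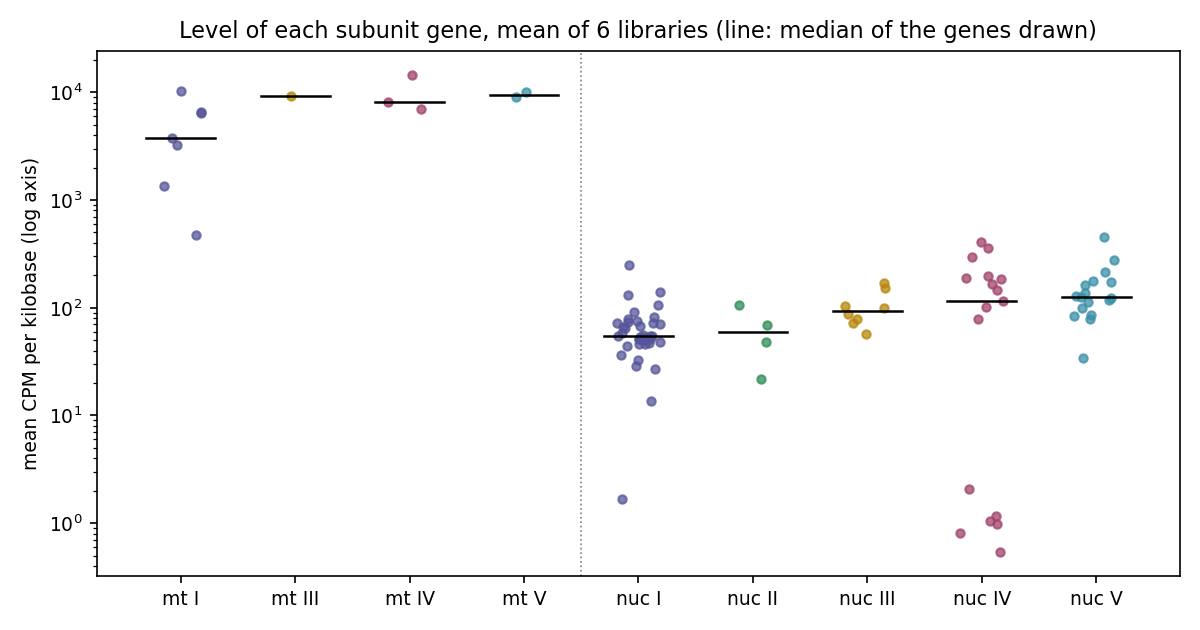
Mean CPM per kilobase of each member over the 6 libraries (vertical log axis), grouped by genome (mt, mitochondrial; nuc, nuclear) and complex, with a line at the median of the genes drawn. The mitochondrial members lie between 470.3 and 14586 and the nuclear ones at 452 or lower; Cox8c, with no read, and Ndufb4b and Ndufb4c, with no reference length, are not drawn.

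Complex I had the largest median among the mitochondrial members. Its 7 mitochondrial subunits form the membrane arm that pumps protons, and their median log2 fold change was 0.18. ND4 (mitochondrial genome, 10167 to 11544) was at 7391, 8137 and 9284 CPM in saline-sired 3, 4 and 5 and at 9388, 10581 and 8837 in methylphenidate-sired 2, 4 and 6. Methylphenidate-sired library 6 lay below saline-sired library 5, so the groups overlapped, and the log2 fold change was 0.22 (SE 0.10, edgeR adjusted p = 0.562). ND1 (2751 to 3707), the membrane subunit that borders the quinone site, was at 8519, 8326 and 10522 CPM and at 10846, 11414 and 9569.9. ND2 (3914 to 4951), an antiporter-like proton channel subunit as ND4 is, was at 5869, 5323 and 7650.2 CPM and at 7664, 7916 and 6619. In both genes the low libraries were saline-sired 3 and 4 and the groups overlapped through saline-sired library 5, with log2 fold changes of 0.22 (SE 0.10, edgeR adjusted p = 0.583) for ND1 and 0.24 (SE 0.13, edgeR adjusted p = 0.630) for ND2.

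ND5, the longest of the membrane arm channels, was at 4695, 6116 and 5753 CPM among saline-sired and 6162, 6616 and 5957 among methylphenidate-sired libraries (log2 fold change 0.18, SE 0.10). ND3, a short subunit at the joint of the membrane and matrix arms, was at 454 ± 36.0 and 494 ± 36.2 CPM (0.12, SE 0.08), and ND4L at 1042 ± 103 and 1179 ± 112 (0.18, SE 0.09). ND6 was at 189, 279 and 248 CPM and at 256, 254 and 239 (0.06, SE 0.13). Saline-sired library 3 was the lowest in ND5, ND3 and ND6, and without it the values for ND5 and ND3 were 0.07 and 0.053 and that for ND6 -0.082, of the opposite sign.

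Complexes III and IV take CYTB and the COX genes from the mitochondrial genome. CYTB, the cytochrome b of complex III, was at 9983, 10068 and 10474 CPM among saline-sired and 10766, 11942 and 9926 among methylphenidate-sired libraries (log2 fold change 0.10, SE 0.07). COX1 was at 20388, 21701 and 23420.4 CPM and at 22315, 24985 and 22408 (0.09, SE 0.07). Methylphenidate-sired library 4 was the highest library in both, as in 12 of the 13 mitochondrial members, and saline-sired library 3 was the lowest in 9. COX2, which takes electrons from cytochrome c, was at 5406 ± 209 and 5656 ± 367 CPM (0.07, SE 0.07). COX3 was at 5429.6 ± 235 and 5596 ± 386 CPM (0.04, SE 0.07), a value that was -0.001 without methylphenidate-sired library 4. Omitting saline-sired library 3 gave COX1, COX2 and COX3 values of 0.039, 0.031 and 0.01. The edgeR adjusted p was 0.728 or higher for CYTB and these genes.

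ATP6 and ATP8 encode the mitochondrial subunits of the ATP synthase, ATP6 lining the proton path. ATP6 was at 5907, 6335 and 7039 CPM among saline-sired and 6982, 8025 and 6793 among methylphenidate-sired libraries (log2 fold change 0.18, SE 0.09, edgeR adjusted p = 0.593). ATP8 was at 1534, 1847 and 1877 CPM and at 1811, 2089 and 1823 (0.12, SE 0.09), and without saline-sired library 3 the values were 0.116 for ATP6 and 0.031 for ATP8. The groups overlapped in both genes. The counts of neighbouring mitochondrial genes are not independent, because they are cut from long shared transcripts and some reading frames overlap: ATP8 and ATP6 share 43 bases, ATP6 and COX3 share 1, ND4L and ND4 share 7, and ND5 and ND6 share 14 on opposite strands. The overlaps within shared transcripts are shown here because a read on them cannot be given to a single gene; they were read from the GENCODE vM21 transcripts (GRCm38, plus strand, 7919 to 7977 and 10159 to 10181 of the mitochondrial genome), with the shared bases in capitals, from the start codon of the downstream gene to the stop codon of the upstream gene.
ATP8 and ATP6: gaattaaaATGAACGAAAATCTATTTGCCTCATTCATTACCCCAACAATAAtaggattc
ND4L and ND4: ctactacaATGCTAAaaattatt
The sources used here do not say whether counting used strand, so reads from ND6 and from ND5 transcripts over their shared bases cannot be told apart.

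Among the 39 nuclear genes of complex I, 30 had a negative log2 fold change, with a median of -0.06. Ndufa3 and Ndufa1, small accessory subunits of the membrane arm, had the lowest p. Ndufa3 (Gene ID 66091, chromosome 7, 3617347 to 3620165) was at 42.4, 44.0 and 37.0 CPM among saline-sired and 31.3, 36.2 and 35.4 among methylphenidate-sired libraries. These groups did not overlap, and the log2 fold change was -0.26 (SE 0.09, edgeR adjusted p = 0.475). Ndufa1 (Gene ID 54405, chromosome X, 37187588 to 37191238) was at 44.3, 41.0 and 37.7 CPM and at 35.6, 37.7 and 34.1. The groups met at 37.7 CPM, and the log2 fold change was -0.20 (SE 0.08, edgeR adjusted p = 0.532).

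The 7 nuclear core subunits of complex I, which bind NADH and carry the iron-sulfur clusters, had a median log2 fold change of -0.02, and the 32 accessory genes, which surround the core, -0.07. Roles here and in complexes II, III and V were assigned after the values were seen. A difference between core and accessory genes was not tested. Ndufs1, the largest core subunit, was at 133 ± 4.92 and 135 ± 7.55 CPM, and Ndufv1, which binds NADH, at 97.4 ± 5.20 and 97.1 ± 8.75. Ndufs8, a core subunit with iron-sulfur clusters, was at 48.6, 44.0 and 44.1 CPM among saline-sired and 38.8, 41.9 and 43.5 among methylphenidate-sired libraries, which did not overlap (log2 fold change -0.14, SE 0.08, edgeR adjusted p = 0.630). Ndufa10, an accessory subunit of the membrane arm, was the nuclear member whose libraries were all higher, at 102, 99.5 and 103 CPM against 105, 105 and 112 (0.08, SE 0.06, edgeR adjusted p = 0.710).

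Complex II, made by the nucleus alone, had 3 of 4 genes negative. Its 2 membrane anchors and 2 catalytic subunits had median log2 fold changes of -0.14 and 0.00, and a difference between these pairs was not tested. Sdhc (Gene ID 66052, chromosome 1, 171129157 to 171150640) was at 77.0, 75.3 and 69.4 CPM among saline-sired and 62.1, 67.8 and 66.2 among methylphenidate-sired libraries. Sdhd (Gene ID 66925, chromosome 9, 50596340 to 50603849) was at 64.7, 60.3 and 60.3 CPM and at 55.5, 59.3 and 58.2. Neither anchor's groups overlapped, and the log2 fold changes were -0.18 (SE 0.07, edgeR adjusted p = 0.497) for Sdhc and -0.10 (SE 0.06, edgeR adjusted p = 0.679) for Sdhd. Sdha, the flavoprotein that oxidises succinate, was at 309 ± 8.90 and 306 ± 6.58 CPM (-0.02, SE 0.06).

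In complex III the 5 small subunits all had negative log2 fold changes, with a median of -0.15, while the core proteins Uqcrc1 and Uqcrc2 and the Rieske iron-sulfur protein Uqcrfs1 had a median of 0.00, from -0.04 to 0.06; a difference between these groups was not tested. Uqcr11 (Gene ID 66594, chromosome 10, 80402997 to 80406821), a small subunit next to the Rieske protein, was at 77.4, 67.9 and 70.5 CPM among saline-sired and 56.5, 66.5 and 64.6 among methylphenidate-sired libraries. Its groups did not overlap (log2 fold change -0.20, SE 0.08, edgeR adjusted p = 0.524). Uqcr10, another small subunit (Gene ID 66152, chromosome 11, 4701968 to 4704344), was at 53.6, 43.1 and 42.2 CPM and at 39.8, 42.3 and 40.7. Here saline-sired library 3 alone stood above the rest, and the log2 fold change was -0.18 (SE 0.10, edgeR adjusted p = 0.632). Uqcrh, the hinge protein that holds cytochrome c1, was at 95.6 ± 7.45 and 89.0 ± 6.61 CPM (-0.10, SE 0.08).

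In complex IV, 14 of the 16 nuclear genes tested were negative, with a median log2 fold change of -0.07. Cox5b (Gene ID 12859, chromosome 1, 36691487 to 36693388), a matrix subunit that binds zinc, had the lowest p of all members. It was at 152, 143 and 121 CPM in saline-sired 3, 4 and 5 and at 118, 110.5 and 109.6 in methylphenidate-sired 2, 4 and 6. The groups did not overlap, although saline-sired library 5 lay near the methylphenidate-sired libraries, and the log2 fold change was -0.30 (SE 0.09, edgeR unadjusted p = 0.0075, adjusted p = 0.452; DESeq2 adjusted p = 0.104). Cox4i1, a regulatory subunit, was at 305, 293 and 247 CPM and at 240.4, 267 and 264. Saline-sired library 5 lay among the methylphenidate-sired libraries, and the value of -0.13 (SE 0.09, edgeR adjusted p = 0.688) became 0.056 without saline-sired libraries 3 and 4. Cox5a was at 104 ± 6.14 and 109 ± 7.56 CPM (0.06, SE 0.07), and Cox8a at 226 ± 10.9 and 226 ± 16.5 (0.00, SE 0.07).

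Several complex IV subunits exist as a general form and a form of heart, skeletal muscle, lung or testis, and the general form supplied nearly all transcripts in every library. Per kilobase, Cox4i1 made up 99.5% to 99.8% of Cox4i1 plus Cox4i2, Cox6a1 98.9% to 99.7% of its pair with Cox6a2, Cox6b1 99.0% to 99.8% of its pair with Cox6b2, Cox7a2 98.5% to 99.2% of its pair with Cox7a1 and Cox7b 98.9% to 99.6% of its pair with Cox7b2. Cox8a stood beside Cox8b, at 0 to 12 counts per library, and Cox8c, the testis form, with 0 in every library; these 2 were under the filter and were not tested. Cox6b2, the testis form, had the most negative value of all members, from 45, 27 and 11 counts in the saline-sired to 7, 10 and 13 among methylphenidate-sired libraries. Its groups overlapped and its counts were low, and its log2 fold change, at -1.36 (SE 0.51, edgeR adjusted p = 0.491), was -0.214 without saline-sired libraries 3 and 4. Cox6a2, the muscle form, was at 82, 70 and 23 counts and at 40, 22 and 52 (-0.54, SE 0.45). Ndufa4 likewise made up 99.1% to 99.5% of its pair with Ndufa4l2, a paralog known for its induction by low oxygen, and was at 134 ± 2.35 and 130 ± 8.18 CPM.

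The ATP synthase had 13 of 17 nuclear genes negative, with a median log2 fold change of -0.08. Atp5k (Gene ID 11958, chromosome 5, 108433246 to 108434399), the e subunit that helps the enzyme form dimers in the membrane, was at 59.5, 48.8 and 47.8 CPM among saline-sired and 42.3, 44.5 and 44.4 among methylphenidate-sired libraries. Atp5e (Gene ID 67126, chromosome 2, 174461075 to 174464101), the epsilon subunit of the central stalk, was at 53.7, 43.6 and 38.5 CPM and at 37.9, 38.1 and 38.0. In both genes the groups did not overlap and saline-sired library 3 was far above the other 5. The log2 fold changes were -0.25 (SE 0.09, edgeR adjusted p = 0.491) for Atp5k and -0.25 (SE 0.12, edgeR adjusted p = 0.569) for Atp5e, and without saline-sired library 3 they were -0.147 and -0.115.

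The beta and alpha subunits of the catalytic head, the most abundant nuclear subunits of the enzyme, were near 0. Atp5b was at 859 ± 29.7 and 874 ± 20.9 CPM (log2 fold change 0.02, SE 0.06) and Atp5a1 at 689 ± 25.7 and 694 ± 25.6 (0.01, SE 0.06), both within 1 SE of 0. The 5 membrane accessory subunits, Atp5k among them, were all negative with a median of -0.08, and the peripheral stalk had a median of 0.00. A difference between these groups of subunits was not tested. Atp5md, another of these accessory subunits, was at 81.1, 81.4 and 80.0 CPM against 73.3, 76.8 and 78.6, without overlap (-0.08, SE 0.06, edgeR adjusted p = 0.692). The 3 genes of the c-ring, the rotor that protons turn, encode the same mature protein. Atp5g1, Atp5g2 and Atp5g3 had log2 fold changes of 0.08 (SE 0.08), -0.13 (SE 0.09) and -0.11 (SE 0.07). Summed with Gm10039, a 99.8% copy, Atp5g1 had a difference between group means of log2 CPM of -0.06, of the opposite sign. Atp5g3 made up 58.3% to 60.0% of the 3 per kilobase, Atp5g2 29.3% ± 1.49 among saline-sired and 28.7% ± 1.16 among methylphenidate-sired libraries, and Atp5g1 9.49% to 12.6%, but with the shortest principal transcripts in place of the median length the share of Atp5g1 was 29.6% to 36.9%, so this split depends on the transcript model.

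The nuclear and mitochondrial differences were uneven over the libraries. Saline-sired library 3 had the highest CPM in 48 of the 84 nuclear members, and methylphenidate-sired library 2 the lowest in 49. Mean log2 CPM over the nuclear members, centred over the libraries, was 0.13, 0.06 and -0.06 in saline-sired 3, 4 and 5 and -0.09, -0.03 and -0.01 in methylphenidate-sired 2, 4 and 6. For the mitochondrial members it was -0.20, -0.07 and 0.05, and 0.06, 0.18 and -0.03. Saline-sired library 5 lay within the methylphenidate-sired range for both genomes, which the plot of complexes by library shows for single complexes.

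**Figure D4:**
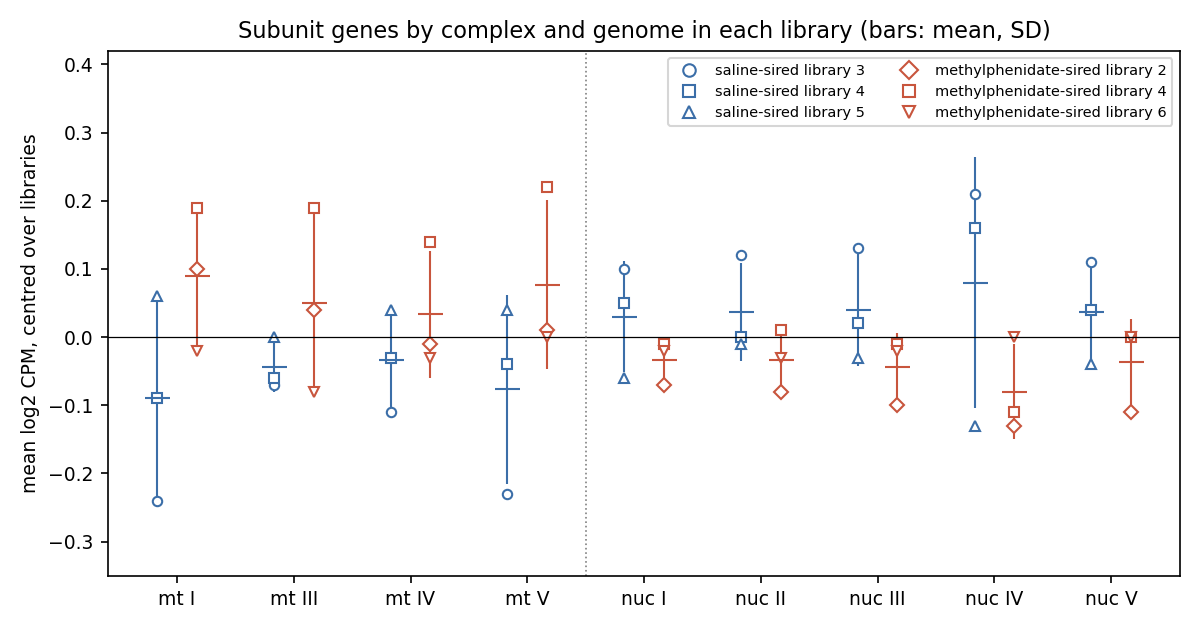
Mean log2 CPM of the members of each complex, centred over the 6 libraries (vertical axis), for mitochondrial (mt) and nuclear (nuc) members, by library, with the group mean and SD (n = 3). Saline-sired library 3 (blue circles) is the highest in all 5 nuclear sets and the lowest or nearly so in the mitochondrial sets, whereas saline-sired library 5 (blue triangles) lies among or close to the methylphenidate-sired libraries; the wide spread of nuclear complex IV comes with its low-count tissue isoforms, at -0.41 to 0.46.

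Without saline-sired library 3 the nuclear median log2 fold change was -0.026 (56 of 84 negative), and without methylphenidate-sired library 2 it was -0.035 (51 of 85 negative). Without saline-sired libraries 3 and 4 together, which left 1 library against 3, it was 0.032 and 31 of 84 members were negative. The mitochondrial median was 0.07 without saline-sired library 3, 0.075 when methylphenidate-sired library 4 was omitted and 0.023 when saline-sired libraries 3 and 4 were. Without saline-sired library 5 both medians were farther from 0, at -0.10 and 0.186. The choroid plexus markers given above were highest in the same libraries, saline-sired 3 and then 4, as the nuclear members, and their part was not tested.

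**Figure D5:**
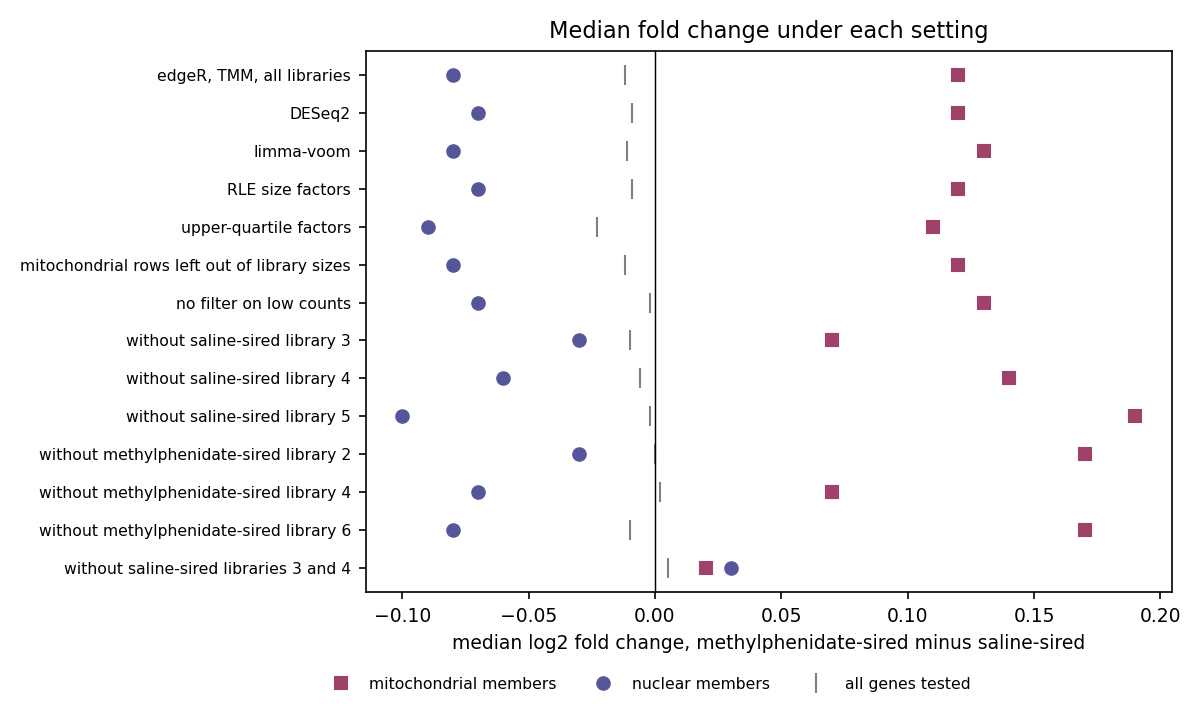
Median log2 fold change (horizontal axis, methylphenidate-sired minus saline-sired) of the mitochondrial members (squares), the nuclear members (circles) and all genes tested (ticks) under each tool, scaling, filter or omission of libraries. The medians hardly move with tool or scaling, but move toward 0 without saline-sired library 3, and both are above 0 (0.032 nuclear, 0.023 mitochondrial) without saline-sired libraries 3 and 4.

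Nuclear subunit transcripts are short, and most genes with short transcripts had negative fold changes. Over all genes with a length, the quartile of shortest transcripts (204 to 1914 nucleotides, 3669 genes) had a median log2 fold change of -0.05 with 62.9% negative, and the quartile of longest transcripts (3668 genes) 0.02 with 44.5% negative. Of the 82 nuclear members tested that had a length, 74 belonged to the shortest quartile. Across these 82 members the Spearman correlation of length with log2 fold change was 0.41, a description over genes that share libraries and are not independent. The 41 shorter members had a median of -0.09 (36 negative) and the 41 longer ones -0.03 (30 negative). The subunit roles compared above also differed in median length. In complex I it was 748 nucleotides for accessory and 1623 for core genes. In complex III it was 535 for small and 1653 for core and Rieske subunits. In the ATP synthase it was 489 for membrane accessory and 790 for peripheral stalk subunits. In complex II the anchors, at 2201, were not shorter than the catalytic subunits, at 2021. In the shortest quartile of all genes, centred log2 CPM was 0.11 in saline-sired library 3 and between -0.05 and 0.02 in the others. Whether transcript length or RNA quality had a part in the nuclear values was not tested. The lengths used for the mitochondrial members, 204 to 1824 nucleotides, are gene lengths and not the lengths of their transcripts.

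Reads of at least 30 members, 21 nuclear and 9 mitochondrial, could be shared with near-identical copies in the genome, so their counts are uncertain. A copy had at least 95% identity over at least 200 nucleotides of GENCODE vM21 transcripts. Ndufb4b and Ndufb4c, copies of Ndufb4, were not searched for copies of their own and are not among the 30. Without the members for which a copy was found, the nuclear median was -0.057, over 63 genes that still included Ndufb4b and Ndufb4c. Gm11273, a 99.2% copy of Cox5b, was at 3.32, 3.23 and 4.55 CPM among saline-sired and 4.41, 7.32 and 6.48 among methylphenidate-sired libraries. For Cox5b summed with it, the difference between group means of log2 CPM was -0.26, beside an edgeR log2 fold change of -0.30 for Cox5b alone. Gm6969, a copy of part of Cox7a2l, was at 34.2 CPM in the saline-sired mean and 32.9 in the methylphenidate-sired mean, beside 91.6, 89.0 and 84.8 CPM and 77.5, 83.3 and 83.9 CPM for Cox7a2l itself, whose groups did not overlap (-0.12, SE 0.06, edgeR adjusted p = 0.615).

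Promoter windows around the start of transcription (RefSeq, GRCm38.p6) were found for 69 of the 86 nuclear members, in 74 windows. They were searched on both strands for 4 motifs of factors known to drive these genes. The NRF1 motif was present in 24.3% of the member windows against 6.4% of all 21262 windows, the ETS motif CCGGAAG in 23.0% against 11.6%, the YY1 motif AAGATGGC in 13.5% against 3.1% and the ERRA motif TCAAGGTCA in 2.7% against 0.3%. Members with an NRF1 match had a median log2 fold change of -0.05 (16 of 17 negative) and those without one -0.08 (39 of 51). The medians with and without a match were -0.10 and -0.05 for ETS, -0.06 and -0.07 for YY1 and -0.10 and -0.05 for ERRA, the last with 2 matched members, so the order differed between motifs. A match describes letters and not binding. Windows are shown for 3 nuclear members with negative values from 3 complexes, minus strand for Atp5k (chr5:108434415-108434474) and Sdhd (chr9:50603894-50603953) and plus strand for Ndufa11 (chr17:56717677-56717736), upstream of the start site, with the NRF1 match in capitals.
Atp5k: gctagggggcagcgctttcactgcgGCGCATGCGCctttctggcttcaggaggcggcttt
Sdhd: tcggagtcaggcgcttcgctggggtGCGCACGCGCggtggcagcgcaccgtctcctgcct
Ndufa11: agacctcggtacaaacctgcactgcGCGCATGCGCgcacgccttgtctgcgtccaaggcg
Ndufa11, an accessory subunit of the complex I membrane arm, was at 43.6 ± 4.60 and 38.8 ± 2.97 CPM (log2 fold change -0.17, SE 0.10, edgeR adjusted p = 0.645).

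Of the 6 lists of genes that build, feed or regulate the complexes, each had 0 genes past the edgeR, DESeq2 or limma-voom test. At an unadjusted edgeR p under 0.05 the assembly factors held 1 higher and 1 lower gene, mitochondrial DNA expression 1 lower, the biogenesis regulators 1 higher, the tricarboxylic acid cycle 2 higher, and the remaining lists 0, against 5.07% higher and 3.95% lower of all genes, so counts this small are not results about the lists. Of 45 assembly factors tested, 30 were negative, with a median log2 fold change of -0.05. Cox17, the copper chaperone of complex IV, was at 30.0, 28.2 and 26.0 CPM among saline-sired and 24.7, 22.4 and 24.7 among methylphenidate-sired libraries, which did not overlap (-0.23, SE 0.09, edgeR adjusted p = 0.491). Sco2, which carries copper to COX2, was at 2.01, 1.10 and 2.47 CPM and at 3.23, 3.29 and 3.25, also without overlap but in the opposite direction (0.81, SE 0.29, edgeR adjusted p = 0.477).

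Genes of mitochondrial DNA expression had a median of -0.02, with 14 of 25 negative. Polrmt, the mitochondrial RNA polymerase, was at 25.7, 25.1 and 23.1 CPM among saline-sired and 20.1, 20.9 and 22.2 among methylphenidate-sired libraries (log2 fold change -0.23, SE 0.08, edgeR adjusted p = 0.491), without overlap. Mterf2, of the family of mitochondrial transcription termination factors, was at 16.9 ± 3.81 and 12.9 ± 1.42 CPM (-0.39, SE 0.17, edgeR adjusted p = 0.560).

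Nuclear regulators of mitochondrial biogenesis divided evenly, with 5 of 10 negative and a median of 0.01. Ppargc1a, the coactivator known as a main driver of biogenesis, was at 55.3, 52.5 and 49.3 CPM among saline-sired and 55.7, 65.0 and 65.4 among methylphenidate-sired libraries. The groups lay next to each other without overlap, between saline-sired library 3 and methylphenidate-sired library 2, and the log2 fold change was 0.24 (SE 0.08, edgeR adjusted p = 0.470). Its relative Pprc1 was at 20.1 ± 1.73 and 23.4 ± 1.95 CPM (0.21, SE 0.10, edgeR adjusted p = 0.583).

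The tricarboxylic acid cycle, which supplies NADH and succinate, had 11 of 18 genes positive and a median of 0.01. Sucla2, a subunit of succinate-CoA ligase, was at 116, 117 and 115 CPM among saline-sired and 128, 125 and 129 among methylphenidate-sired libraries, and Idh3a, of the NAD-linked isocitrate dehydrogenase, at 153, 157 and 171 and at 179.5, 175 and 180.2. Neither gene's groups overlapped, with log2 fold changes of 0.14 (SE 0.05, edgeR adjusted p = 0.481) and 0.15 (SE 0.06, edgeR adjusted p = 0.505). Of the other electron carriers and subunits, 6 of 9 were positive with a median of 0.02, Atpif1, the inhibitor of the ATP synthase, at 0.08 (SE 0.07) and Etfb, of the electron transfer flavoprotein, at -0.23 (SE 0.12). Carriers and channels for ATP export had 8 of 12 negative and a median of -0.03, with Vdac3, an outer membrane channel, at 0.07 (SE 0.06) and Tomm40, the protein import pore, at -0.11 (SE 0.08).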

How the data were processed

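Striatal RNA-seq was analysed in 6 libraries, 3 per group. The authors' deposited table gives whole-number read counts per RefSeq gene, not normalized. The submitters' processing notes name bcl2fastq 2.20.0, Trimmomatic, HISAT2 2.1.0 and StringTie 2.1.3b with the build mm10; the sources used here do not state settings, strandedness, RNA selection or whether counts were rounded estimates. The other 12 per-sample columns (FPKM and TPM) were not used. Columns named for controls were read as saline-sired and those named for the father as methylphenidate-sired, after the series title; a column shows its group, not the labelled animal, so sex could not be a covariate and no labelled pairing could be used.

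Group differences in these counts were tested in R 4.3.3 with edgeR 4.0.16 (quasi-likelihood F test; TMM scaling; filterByExpr; Benjamini-Hochberg over 17874 genes; threshold 0.05), which was tested on simulated data. SE was derived from the fold change and F. CPM uses TMM-scaled library sizes, and log2 CPM a prior count of 2. DESeq2 1.42.0 (no adjusted p for 2779 genes), limma-voom (limma 3.58.1), other scalings and filters, and omission of each library were alternatives. Gene identifiers matched a RefSeq GRCm38.p6 table for 45679 of 45777 genes, which gave coordinates. Lengths are medians over the best-ranked principal transcripts of GENCODE vM21 (mitochondrial genes from RefSeq) and were found for 97 of 99 members. Copies were sought with blastn 2.17.0 (expectation limit 1e-20).

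The text names all mitochondrial members; per complex the members past the test, otherwise the 2 of lowest p, and the most abundant per kilobase; paralog families; and per gene list the 2 of lowest p. Other members given as examples were named after their values were seen. Members and lists were chosen with earlier results of these data known, and subunit roles were assigned after values were seen. Lists are described by counts and medians, without a set test.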

Additional observations from a re-analysis of the deposited data

How the results depend on the processing

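Tool, scaling, filter and mitochondrial library size left the nuclear median between -0.07 and -0.088 and the mitochondrial median between 0.111 and 0.133. Omitting the members for which a copy was found gave -0.057 for the nuclear median. Omitting each library in turn gave -0.10 to -0.026 for the nuclear median, 0.07 to 0.186 for the mitochondrial median, 0.107 to 0.284 for the log2 ratio of mitochondrial to nuclear counts, and 1 to 4 called genes (1 without methylphenidate-sired library 6). DESeq2 called 173 genes. Without saline-sired libraries 3 and 4, chosen after seeing the data, the nuclear median was 0.032, the ratio -0.012 and the calls 0 by edgeR (958 at an unadjusted p under 0.05), with fewer samples tested. No paired analysis was possible because the columns carry other numbers than the labels' titles. Of 702 values of 54 named genes under alternatives, 41 had the opposite sign, in 20 genes, all uncalled; the cause was not tested. Without saline-sired libraries 3 and 4 these were COX1 -0.012, COX3 -0.02, ND2 -0.049, Sdha 0.006, Uqcrh 0.034, Cox8a 0.072, Cox4i1 0.056, Cox6a1 0.048, Cox6a2 0.637, Cox6b1 0.035, Cox7a1 0.016, Cox7b 0.008, Cox7b2 0.037, Ndufa4l2 0.129, Atpif1 -0.014, Etfb 0.001 and Tomm40 0.006. Omitting each library in turn, the range included 0 for COX3 (-0.001 to 0.088), ND6 (-0.082 to 0.192), Ndufa4 (-0.06 to 0.026), Sdha (-0.029 to 0.01), Cox8a (-0.04 to 0.067), Cox4i2 (-0.371 to 0.326), Cox6a1 (-0.059 to 0.003), Cox6b1 (-0.079 to 0.008), Cox7a1 (-0.457 to 0.151), Cox7b (-0.026 to 0.028), Cox7b2 (-0.365 to 0.229) and Ndufa4l2 (-0.236 to 0.158). Cox8a was 0.001 with DESeq2, 0.001 with RLE factors and 0.01 without a filter, and Cox4i2 was -0.025 with limma-voom. With 3 libraries per group and SE near 0.08, differences of the size seen in most nuclear members were not detectable.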

Other observations

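The mitochondrial genome also encodes ribosomal and transfer RNAs, which were counted in the same table and belong to no comparison above. The ribosomal RNAs summed to 4263, 6896 and 4703 CPM in saline-sired 3, 4 and 5 and to 5371, 6988 and 5483 in methylphenidate-sired 2, 4 and 6. The highest library of each group was its library 4, and the groups overlapped. The transfer RNAs summed to 176, 179 and 239 CPM and to 202, 225 and 205, with saline-sired libraries 3 and 4 below all the others and saline-sired library 5 above them.

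A copy of a c-ring gene differed between single libraries far more than the gene itself. Gm10039, a processed pseudogene that matched Atp5g1 at 99.8% over 411 nucleotides, was at 32.0 CPM in saline-sired library 3 and between 2.53 and 4.16 CPM in the other 5 libraries. Atp5g1 was lowest in that same library, at 81.7 CPM against 87.8 to 100.3 in the others. Summed with its copy it was at 114 CPM there and at 90.3 to 104 elsewhere. The edgeR log2 fold change of the gene was 0.08, and the difference between group means of the log2 summed CPM was -0.06. The sources used here do not say how reads that match both were assigned.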
